A study of Mus musculus with 17 samples.

Results

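The genes that copy DNA and the genes that divide the cell were followed as a set of 43, 23 for DNA replication and 20 for mitosis, among the 55421 genes counted in colorectal tumors of mice. They were chosen by name, and all 43 were found in the count tables and tested in every comparison. The tumors came from C57BL/6 mice given azoxymethane (AOM), a mutagen, and then courses of dextran sulfate sodium (DSS), which inflames the colon, in the drinking water. There were 3 libraries from Tyk2KO mice (Tyk2Δ/Δ, the Janus kinase gene Tyk2 deleted in the germline of an outcrossed line made with CMV-cre) and 3 from Tyk2wt mice (Tyk2+/+, bred from the same line). There were 4 libraries from Tyk2DIEC mice (Tyk2ΔIEC, floxed Tyk2 with Villin-cre, which acts in intestinal epithelial cells and leaves Tyk2 intact elsewhere) and 7 from Tyk2fl mice (Tyk2fl/fl, floxed and without cre). All mice had received AOM and DSS, and no untreated colon was analysed here. The age of the mice is not given in the sources used here. Tumors were dissected whole, so every library mixes epithelium, stroma and immune cells. A legend of the study speaks of pooled tumor samples, and whether replicates are separate mice is not stated, so p-values measure the spread between libraries, which may in part be technical.

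DNA is copied once per cell cycle. In G1 the licensing factors Cdc6 and Cdt1 load the ring of Mcm2 to Mcm7 onto origins, and in S phase Cdc45 and the GINS proteins turn that ring into the moving helicase, the clamp Pcna is loaded by the Rfc complex, and the polymerases α, δ and ε extend the strands. Cdk1 with cyclins A and B then starts mitosis, in which kinesin motors and kinetochore proteins attach chromosomes to the spindle, the checkpoint proteins Bub1, BubR1 (Bub1b) and Mps1 (Ttk) hold the cell until they are attached, and the anaphase-promoting complex ends it. Transcripts of the first class peak around G1/S through E2F factors. Those of the second peak in G2 and M through the DREAM and B-MYB-FOXM1 complexes, which bind CHR elements. Promoters of the second class often hold CCAAT elements too. In the colon both classes mark the dividing cells of the crypt base and of adenomas.

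Promoter windows of RefSeq (GRCm38.p6, 250 bases before to 50 after the start) matched 34 members, and the motifs of both classes were searched in them on both strands. An E2F site (TTTCCCGC, TTTCGCGC, TTTGCCGC or TTTGGCGC) was present for 9 of the 18 matched replication genes (50%) and 1 of the 16 matched mitosis genes (6.25%), beside 704 of 27025 genes in the table (2.605%). A CHR (TTTGAA or TTCGAA) together with CCAAT was present for 12 of 16 mitosis genes (75.0%) and 4 of 18 replication genes (22.2%), beside 8.61% of all genes. A gene counted if any of its windows held the motif, and a match is a description of the letters. Below are the windows of the member of each class with the smallest adjusted p in the comparison with the most members called, described further on. In Pola1, the catalytic subunit of polymerase α, the capitals mark an E2F site read on the opposite strand (chrX:93632106-93632405, minus strand). In Kif11, the kinesin that pushes spindle poles apart, they mark CCAAT and then the CHR, both on the opposite strand (chr19:37376132-37376431, plus strand).
Pola1: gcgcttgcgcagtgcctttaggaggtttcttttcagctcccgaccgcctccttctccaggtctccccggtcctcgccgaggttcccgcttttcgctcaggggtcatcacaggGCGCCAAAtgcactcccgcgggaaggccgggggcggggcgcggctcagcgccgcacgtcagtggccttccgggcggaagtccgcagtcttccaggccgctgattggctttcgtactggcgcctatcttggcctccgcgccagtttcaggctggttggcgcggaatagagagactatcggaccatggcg
Kif11: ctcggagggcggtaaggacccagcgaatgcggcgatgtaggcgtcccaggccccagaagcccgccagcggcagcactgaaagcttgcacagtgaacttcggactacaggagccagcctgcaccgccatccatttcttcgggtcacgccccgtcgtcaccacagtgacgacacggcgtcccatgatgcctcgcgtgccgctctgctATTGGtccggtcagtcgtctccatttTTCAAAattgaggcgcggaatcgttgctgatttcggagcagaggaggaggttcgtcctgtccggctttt

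All members were well measured. Their counts ran between 346 (Ccne2) and 13019 (Top2a) per library, and the classes took 0.142% to 0.177% (replication) and 0.140% to 0.204% (mitosis) of all counts. Per kilobase of transcript the clamp gene Pcna was highest, at a mean of 125 CPM per kb (CPM being counts relative to the TMM-scaled library size) over the 17 libraries, followed by Ube2c, the ubiquitin-conjugating enzyme of the anaphase-promoting complex, at 81.4, the topoisomerase gene Top2a at 67.9 and Birc5 (survivin) at 64.8. The kinetochore ATPase gene Ercc6l was lowest at 4.08, below the polymerase gene Pole at 4.85 and Pola1 at 6.12 CPM per kb. Pseudogene rows named after a member held at most 70 counts (Pcna-ps2), far under the member itself. Coding genes on the opposite strand overlap Mcm7, Rfc4, Gins2, Cdc45, Ccne2, Ccna2, Kif20a and Ube2c. The library kit keeps the strand, but which strand column was deposited is not stated, so reads where such exons overlap could be split.

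Libraries held 19922606 to 21707373 counts on genes in Tyk2KO, 19789347 to 21318077 in Tyk2wt, 19129696 to 20334948 in Tyk2DIEC and 29777763 to 35427965 in Tyk2fl tumors. Xist, transcribed from the inactive X of females, had 40656 to 45446 counts in Tyk2fl replicates 1 to 3 and at most 106 in all other libraries, so the Tyk2fl group alone mixes sexes. The Tyk2 deletion removes an exon and leaves a transcript, and Tyk2 had 1177 to 1257 counts in Tyk2KO against 1092 to 1199 in Tyk2wt libraries, so the gene count does not check these labels. Epithelial marker genes (Epcam, Cdh1, Krt8 and 12 others) were present in every group and summed to 10270 to 16657 CPM.

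Tumors without Tyk2 in any cell were compared with wild-type tumors to ask what germline loss does. All 20 mitosis genes and 22 of 23 replication genes had negative log2 fold changes in Tyk2KO against Tyk2wt tumors. The changes were small and in nearly all members did not pass the test. Only Kif11 did, by 0.46 ± 0.10 on the log2 scale (SE) downward, with an adjusted p of 0.0499 in edgeR's quasi-likelihood test, 1 of 43 members beside 2.13% of all 16179 genes tested that were called lower. No member was called higher (background 0.668%) and none changed over 2-fold (background 1.30%). The median log2 fold change was -0.12 for replication and -0.20 for mitosis genes, against 0.00 over all genes tested. CPM of the groups did not overlap for 7 replication and 9 mitosis genes, all lower in Tyk2KO, 16 of 43 beside 14.0% of all genes that were lower without overlap. No member was higher without overlap (background 14.8%). At an unadjusted p under 0.05 there were 17 members, all lower, beside 13.1% of all genes that were lower at that p.

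The largest differences among replication genes were those of Pola1 and of the clamp loader gene Rfc4. Pola1 had 25.7, 28.3 and 32.8 CPM in Tyk2KO tumors, against 44.4, 37.8 and 39.5 in Tyk2wt tumors. Every Tyk2KO library lay below every Tyk2wt library, and the log2 fold change was -0.50 ± 0.11 (adjusted p = 0.0568). Rfc4 had 23.1, 26.0 and 26.4 CPM in Tyk2KO and 38.1, 29.5 and 31.6 CPM in Tyk2wt tumors, a log2 fold change of -0.40 ± 0.11 (adjusted p = 0.0957), again without overlap. Ccne2, a cyclin E that drives entry into S phase, followed at -0.38 ± 0.15 (adjusted p = 0.178). Wdhd1, which tethers polymerase α to the helicase, had a log2 fold change of -0.21 ± 0.07 (adjusted p = 0.120). The helicase ring stood near 0, with log2 fold changes of -0.11 (Mcm3) to 0.03 (Mcm7). Mcm7 was the only member with a positive value, at 134, 137 and 134 CPM in Tyk2KO tumors, against 132, 137 and 127 CPM in Tyk2wt tumors, and the groups overlapped. The polymerase δ gene Pold1 was also level, at 35.4 ± 3.57 CPM in Tyk2KO and 35.3 ± 2.08 CPM in Tyk2wt tumors (SD, n = 3 each).

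Among mitosis genes Cenpf, Cenpe, Mki67, Bub1 and Kif11 had the lowest log2 fold changes, while Kif20a, the kinesin of the central spindle, was at -0.06 ± 0.06 (adjusted p = 0.6005). Kif11 had 67.5, 63.6 and 76.0 CPM in Tyk2KO tumors, against 104, 85.4 and 93.5 CPM in Tyk2wt tumors. All Tyk2KO libraries lay below all Tyk2wt libraries. Its call was lost when Tyk2wt replicate 1 or 3 or Tyk2KO replicate 1 or 2 was left out (0 members called), while 3 members were called without Tyk2wt replicate 2 and 5 without Tyk2KO replicate 3. Calls over all genes moved as well, to 114 to 822 without single libraries against 453. Cenpf, a large kinetochore protein, had 48.4, 37.5 and 61.4 CPM in Tyk2KO and 97.8, 62.9 and 80.9 CPM in Tyk2wt tumors, a log2 fold change of -0.72 ± 0.20 (adjusted p = 0.0965). The highest Tyk2KO library, replicate 3, lay just under the lowest Tyk2wt library. Cenpe, the kinetochore kinesin CENP-E, had 35.96, 29.6 and 50.8 CPM in Tyk2KO and 68.5, 57.5 and 58.1 CPM in Tyk2wt tumors (-0.67 ± 0.18, adjusted p = 0.0912).

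Mki67, the coat protein of mitotic chromosomes that is stained as Ki-67, had 199, 178 and 265 CPM in Tyk2KO tumors, against 362, 299 and 330 CPM in Tyk2wt tumors. The groups did not overlap, and replicate 3 again was the highest of the Tyk2KO libraries (log2 fold change -0.63 ± 0.15, adjusted p = 0.0649). The checkpoint kinase gene Bub1 had 26.2, 25.3 and 34.5 CPM in Tyk2KO and 47.6, 36.1 and 41.8 CPM in Tyk2wt tumors (-0.55 ± 0.15, adjusted p = 0.0861). Its partner Bub1b overlapped between the groups (-0.07 ± 0.08, adjusted p = 0.637), as did the kinase genes Plk1 (-0.04 ± 0.06, adjusted p = 0.705), Aurka, Aurkb and Melk. DESeq2, the tool of the study, called 8 members lower (Pola1, Rfc4, Mki67, Top2a, Bub1, Kif11, Cenpe and Cenpf), beside 5.59% of all genes that it called lower. It called 1260 genes in all, in both directions, against 453 with edgeR. With limma voom, upper-quartile scaling, library size alone, a minimum count of 50 or coding genes only, 0 members were called and the call of Kif11 was lost. These settings called 1.87% to 2.19% of all genes lower.

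**Figure D1:**
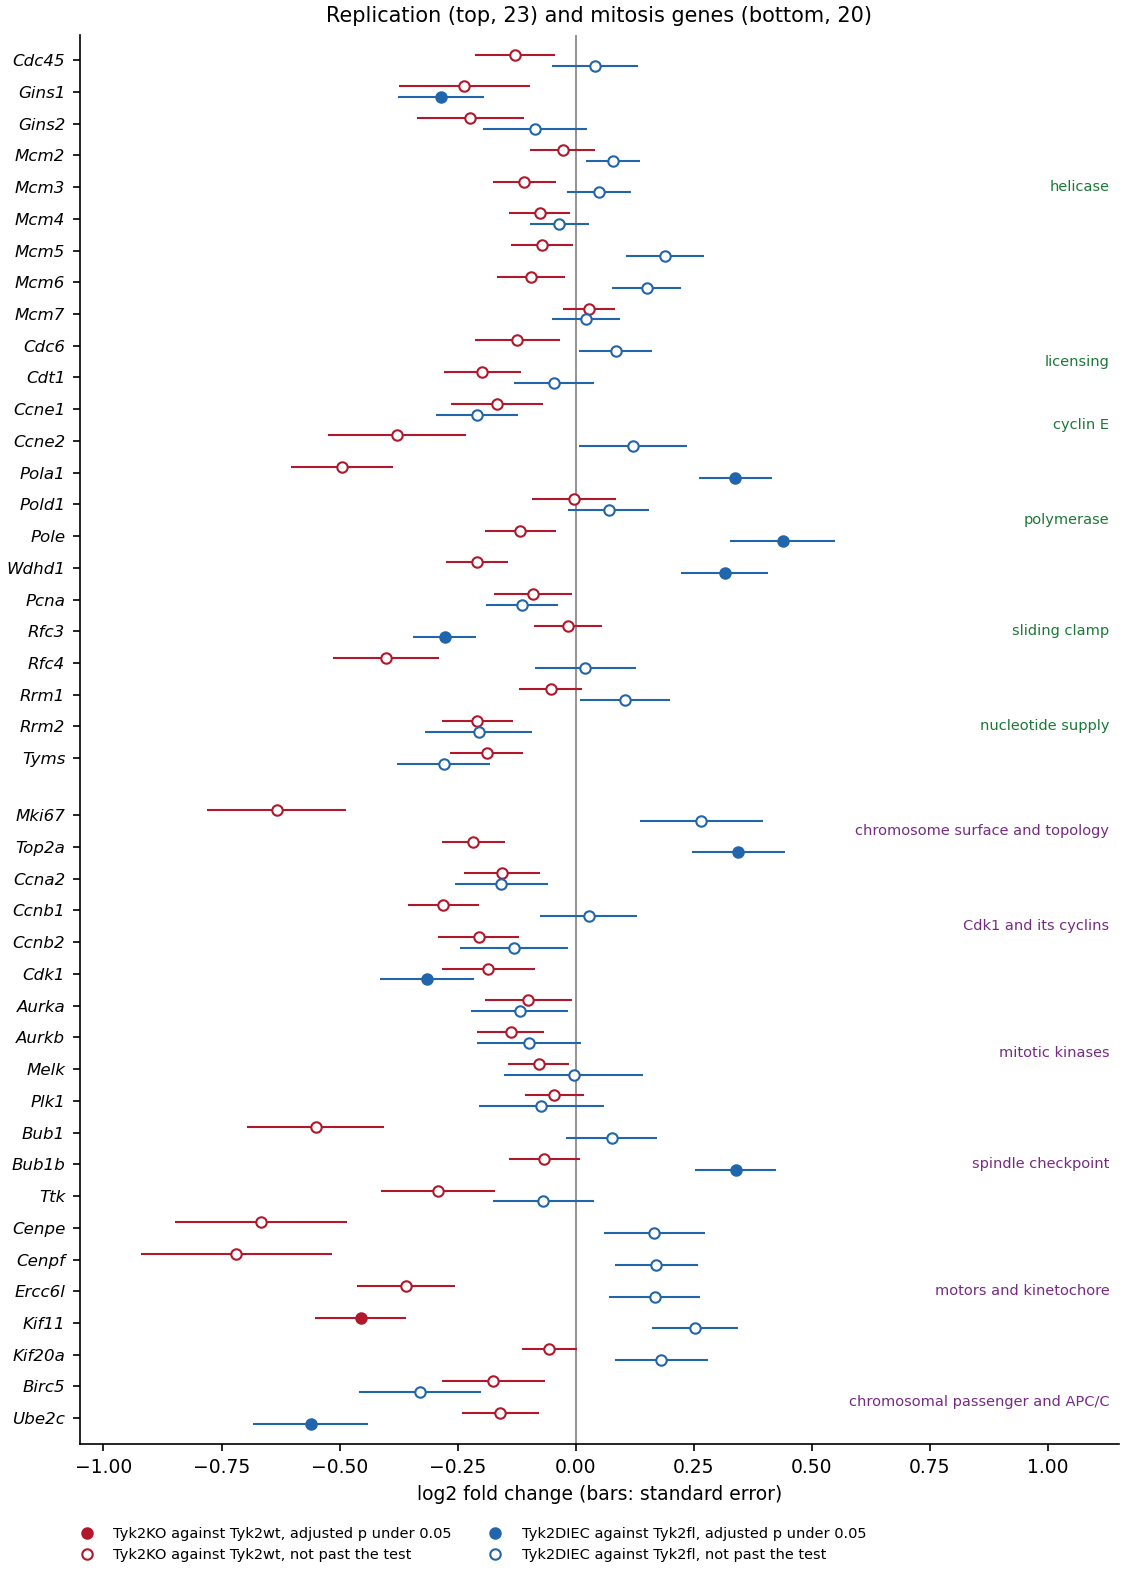
Log2 fold changes (x axis) of 23 replication and 20 mitosis genes (rows, ordered by role) in Tyk2KO against Tyk2wt tumors (red, 3 and 3 libraries) and in Tyk2DIEC against Tyk2fl tumors (blue, 4 and 7 libraries). Bars are standard errors of edgeR's fit and filled points have an adjusted p under 0.05. 42 of 43 red points lie left of 0, whereas 24 blue points lie right of it.

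Tumors without Tyk2 in the epithelium were compared with floxed tumors to ask what loss in the epithelium alone does. Here the members moved both ways. Pola1, Pole, Wdhd1, Top2a and Bub1b rose and Rfc3, Gins1, Cdk1 and Ube2c fell in Tyk2DIEC relative to Tyk2fl tumors, with changes of 0.32 to 0.44 upward and -0.28 to -0.56 downward on the log2 scale. The 5 members called higher stood beside 10.2% and the 4 called lower beside 9.71% of 17668 genes tested, so the members were called at about the rate of all genes. None changed over 2-fold (background 3.12%). The median log2 fold change was 0.04 for replication and 0.01 for mitosis genes (0.00 over all genes). CPM of the groups did not overlap for 2 members that were higher (background 7.73%) and 1 that was lower (background 7.81%).

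Of the polymerase genes and their tether, Pole, Pola1 and Wdhd1 rose and Pold1 did not pass the test. Pole, the catalytic subunit of polymerase ε, had 43.2, 42.3, 36.6 and 41.3 CPM in Tyk2DIEC tumors, against 25.5 to 37.5 CPM (median 31.1) in Tyk2fl tumors. The groups overlapped in the highest Tyk2fl library alone, and the log2 fold change was 0.44 ± 0.11 (adjusted p = 0.0174). Pola1 had 33.6, 37.5, 35.2 and 39.2 CPM in Tyk2DIEC and 24.9 to 32.5 CPM (median 29.2) in Tyk2fl tumors, without overlap (0.34 ± 0.08, adjusted p = 0.0118). Wdhd1 had 49.8, 51.6, 49.99 and 50.9 CPM in Tyk2DIEC and 33.6 to 45.7 CPM (median 41.5) in Tyk2fl tumors, also without overlap (0.32 ± 0.09, adjusted p = 0.0313). Pold1 was at 0.07 ± 0.09 (adjusted p = 0.606). None of the 3 calls held with trends on transcript length and GC content removed, as described further on.

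The replication genes that fell were the clamp loader gene Rfc3 and Gins1, a subunit of the helicase. Rfc3 had 45.1, 42.7, 41.8 and 43.6 CPM in Tyk2DIEC tumors, against 45.4 to 56.0 CPM (median 53.1) in Tyk2fl tumors. No library overlapped, and the log2 fold change was -0.28 ± 0.07 (adjusted p = 0.0137). Gins1 had 18.8, 18.1, 19.01 and 20.6 CPM in Tyk2DIEC and 19.996 to 26.7 CPM (median 24.5) in Tyk2fl tumors (-0.29 ± 0.09, adjusted p = 0.0454), and the highest Tyk2DIEC library overlapped the lowest Tyk2fl libraries. Of the genes for nucleotide supply, Tyms (thymidylate synthase) was at -0.28 ± 0.10 (adjusted p = 0.0621), Rrm2 at -0.21 ± 0.11 and Rrm1 at 0.10 ± 0.10, none past the test. The helicase ring lay between -0.03 (Mcm4) and 0.19 (Mcm5).

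Of the mitosis genes, Top2a, which untangles sister chromatids, had 346, 432, 401 and 422 CPM in Tyk2DIEC tumors, against 265 to 378 CPM (median 322) in Tyk2fl tumors. Replicate 1 was the lowest Tyk2DIEC library and lay inside the Tyk2fl range (0.34 ± 0.10, adjusted p = 0.0295). Bub1b had 68.7, 86.6, 77.9 and 82.1 CPM in Tyk2DIEC and 54.4 to 73.5 CPM (median 63.4) in Tyk2fl tumors (0.34 ± 0.09, adjusted p = 0.0179), where again replicate 1 alone overlapped. Mki67 was at 310, 367, 364 and 344 CPM in Tyk2DIEC and 201 to 346 CPM (median 307) in Tyk2fl tumors, with overlap (0.27 ± 0.13, adjusted p = 0.171).

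Ube2c had the largest change of all members in this comparison. It had 53.8, 75.2, 58.5 and 64.7 CPM in Tyk2DIEC tumors, against 72.3 to 111 CPM (median 89.9) in Tyk2fl tumors. Replicate 2 of Tyk2DIEC was the one library within the Tyk2fl range, and the log2 fold change was -0.56 ± 0.12 (adjusted p = 0.00902). Cdk1, the kinase that starts mitosis, had 63.7, 77.6, 68.0 and 77.7 CPM in Tyk2DIEC and 76.5 to 107 CPM (median 88.1) in Tyk2fl tumors (-0.31 ± 0.10, adjusted p = 0.0429). Its cyclins Ccna2, Ccnb1 and Ccnb2 were at -0.16, 0.03 and -0.13, and Birc5, the survivin subunit of the chromosomal passenger complex, at -0.33 ± 0.13 (adjusted p = 0.09004). Without Tyk2DIEC replicate 2 only Rfc3 and Ube2c were called, 4 members were called without Tyk2DIEC replicate 3, and 5 without Tyk2DIEC replicate 4 or Tyk2fl replicate 6. Calls over all genes moved as well, to 1632 to 3798 without single libraries against 3515. The calls of Rfc3 and Ube2c held whichever of the 11 libraries was left out. Both were lost with trends on transcript length and GC content removed, where Cdk1 alone was called (5.42% of all genes lower there). With the replicate number as a block Ube2c alone was called (3.42% of all genes lower there). That block leaves Tyk2fl replicates 5 to 7 without a partner and so without weight in the comparison.

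**Figure D2:**
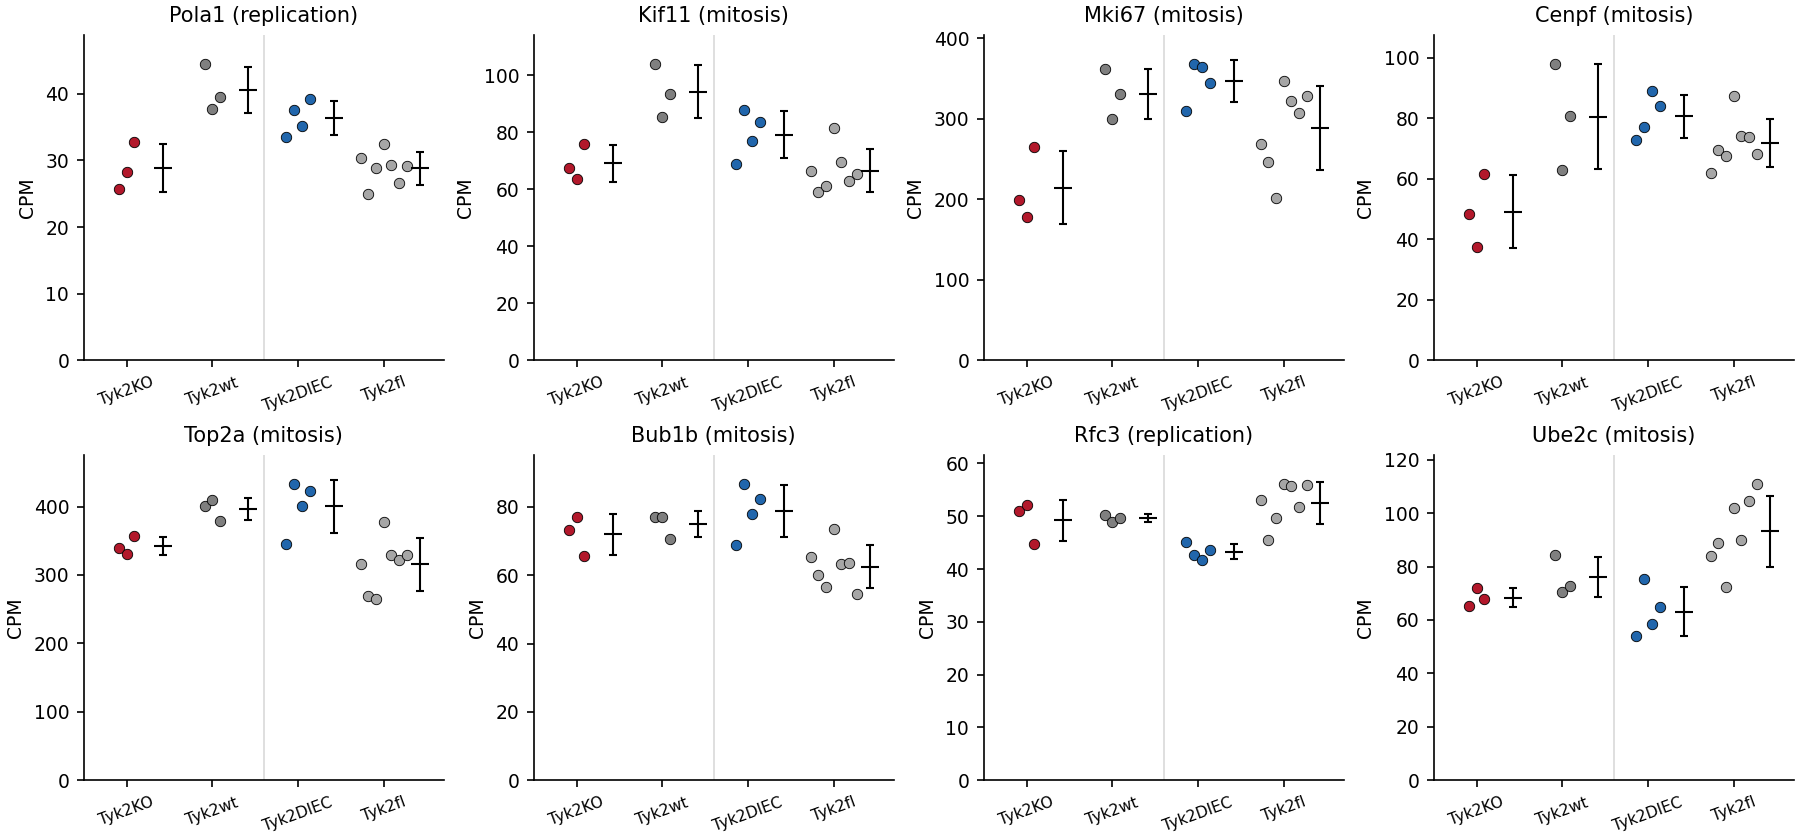
CPM (y axis, from 0) of 8 members in each of the 17 libraries, by genotype. Points are libraries and the bars beside them mean ± SD. Tyk2KO points of Pola1, Kif11, Mki67 and Cenpf lie below all Tyk2wt points, and Tyk2DIEC points of Rfc3 lie below all Tyk2fl points.

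The members' levels differed within the Tyk2fl group. Tyk2fl replicates 1 to 3, the libraries with Xist, had mean log2 CPM of 5.54 to 5.74 over replication and 5.75 to 5.96 over mitosis genes. Tyk2fl replicates 4 to 7 had 5.71 to 5.86 and 6.04 to 6.23. Against replicates 4 to 7 alone, 2 members were called higher (Pola1 and Wdhd1) and 9 lower in Tyk2DIEC tumors (Rrm2, Tyms, Rfc3, Gins1, Cdk1, Ccna2, Ccnb2, Birc5 and Ube2c), beside 9.88% of all genes called higher and 11.6% called lower in that setting, and the medians were -0.05 for replication and -0.13 for mitosis genes. The part of sex in this was not tested. Pola1 and Ercc6l lie on the X chromosome.

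Whether the change of a member differed between the deletions was tested as the difference of their log2 fold changes over all 17 libraries (Tyk2DIEC minus Tyk2fl, less Tyk2KO minus Tyk2wt). For 10 members the difference passed the test, in each case with a higher value for the epithelial deletion, beside 5.23% of 17252 genes called in that direction. No member was called in the other direction (background 2.73%). With Tyk2fl replicates 4 to 7 only or 5 to 7 only, Rfc3 and Ube2c were called that way, beside 4.94% and 6.27% of all genes. Rfc3 was also called that way without Tyk2KO replicate 3. Of the replication genes, the 10 called members were Pola1 (0.83 ± 0.13, adjusted p = 0.00142), Pole (0.55 ± 0.16, adjusted p = 0.0496) and Wdhd1 (0.52 ± 0.13, adjusted p = 0.0250). Of the mitosis genes they were Mki67, Top2a, Bub1, Kif11, Cenpe, Cenpf and Ercc6l, with differences of 0.52 (Ercc6l) to 0.89 (Mki67).

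These 10 members lay below 0 in the germline and above 0 in the epithelial experiment. With trends on length and GC content removed, 5 of them lay at or below 0 in Tyk2DIEC tumors too, Mki67 at -0.01, Bub1 at -0.00, Cenpe at -0.09, Cenpf at -0.12 and Ercc6l at -0.00. Kif11 was at -0.46 in Tyk2KO and at 0.25 in Tyk2DIEC tumors, each against its own controls, and differed by 0.70 ± 0.15 (adjusted p = 0.00813). Cenpf was at -0.72 in Tyk2KO and at 0.17 in Tyk2DIEC tumors and differed by 0.88 ± 0.21 (adjusted p = 0.0167). For the helicase ring the differences lay between -0.01 (Mcm7) and 0.25 (Mcm5), and for Ube2c the difference was -0.41 ± 0.18 (adjusted p = 0.168). Pola1 and Kif11 kept their call whichever of the 17 libraries was left out. Only those 2 were called without Tyk2wt replicate 3, Tyk2KO replicate 1 or Tyk2KO replicate 2, 3 without Tyk2wt replicate 1, 4 without Tyk2DIEC replicate 3 or 4, 5 without Tyk2DIEC replicate 2 and 6 without Tyk2wt replicate 2. Calls over all genes moved as well, to 584 to 1690 without single libraries against 1374.

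The control groups, both with intact Tyk2, also differed. Called higher in Tyk2wt than in Tyk2fl tumors were 8 members (background 7.37% of 17252 genes), Mcm6, Pola1, Wdhd1, Rfc4, Ccne2, Top2a, Kif11 and Ercc6l, and none was called lower (background 5.49%). The medians were 0.10 for replication and 0.16 for mitosis genes. Against Tyk2fl replicates 4 to 7 alone, the medians were -0.02 and 0.00. Pola1, Wdhd1, Rfc4, Ccne2 and Kif11 were called higher there (background 5.81%) and Ube2c was called lower (background 6.26%). With Tyk2fl libraries thinned to the median depth of Tyk2DIEC libraries, the 8 members of the main test were called higher (background 7.39%). Pola1 averaged 40.6 ± 3.45 CPM in Tyk2wt (SD, n = 3) and 28.8 ± 2.47 CPM in Tyk2fl tumors (SD, n = 7), a log2 fold change of 0.49 ± 0.09 (adjusted p = 0.0031). Kif11 averaged 94.2 ± 9.23 CPM in Tyk2wt and 66.5 ± 7.45 CPM in Tyk2fl tumors (0.50 ± 0.10, adjusted p = 0.00446). Rfc4 averaged 33.1 ± 4.48 CPM in Tyk2wt and 23.02 ± 3.02 CPM in Tyk2fl tumors (0.52 ± 0.11, adjusted p = 0.00733), which is a gene whose neighbour Eif4a2 overlaps on the opposite strand. Without Tyk2wt replicate 1 only Pola1 and Kif11 were called, 3 members were called without Tyk2wt replicate 3, 4 without Tyk2wt replicate 2 or Tyk2fl replicate 6, 5 without Tyk2KO replicate 2 or Tyk2DIEC replicate 3 and 13 without Tyk2fl replicate 4. Calls over all genes moved to 345 to 2806 without single libraries against 2219, and stood at 2220 without Tyk2fl replicate 4. Set beside the genotypes, the mean of Pola1 in Tyk2KO tumors (28.9 ± 3.59 CPM) was near that in Tyk2fl tumors, and the mean in Tyk2DIEC tumors (36.4 ± 2.49 CPM) lay between Tyk2fl and Tyk2wt. Experiment and mouse line differ together between the control groups and cannot be told apart.

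Transcript length and base composition moved with these values. The 10 members whose annotated principal transcript exceeds 4000 bp (Pola1, Pole, Wdhd1, Mki67, Top2a, Cdk1, Kif11, Cenpe, Cenpf and Ercc6l) had a median log2 fold change of 0.26 in Tyk2DIEC against Tyk2fl tumors, and the 10 of up to 2000 bp (among them Rfc3, Gins1, Birc5 and Ube2c) a median of -0.17. This split was chosen after the values were seen. Over the 43 members Spearman's rho of log2 fold change with transcript length was 0.74, and over the 14649 coding genes tested it was 0.44, a description across genes of the same libraries. The median over coding genes was -0.32 for transcripts under 1000 bp and 0.28 for those over 8000 bp. Cdk1 was the long member that fell.

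In Tyk2KO against Tyk2wt tumors the values went with GC content instead (rho 0.63 over members, 0.34 over 14049 coding genes, and -0.25 and 0.13 with length). The median of coding genes was -0.13 at a GC content of 40 to 45%, where Pola1, Kif11, Bub1, Cenpe, Cenpf, Top2a, Ercc6l and 4 other members lie, and 0.04 at 50 to 55%. With each library's trend on length and GC content removed, an alternative added after the data were seen, 1 member was called in each experiment, Mki67 in Tyk2KO (-0.65 ± 0.13, adjusted p = 0.0430) and Cdk1 in Tyk2DIEC tumors (-0.43 ± 0.12, adjusted p = 0.0486). Of all genes, 1.99% were called lower in Tyk2KO and 5.42% in Tyk2DIEC tumors in that setting. No member was called for the difference between the experiments with edgeR, 8 of 43 having an unadjusted p under 0.05 beside 20.2% of all genes. In Tyk2KO tumors 40 of 43 members still had negative values, with medians of -0.13 for both classes. What produced the trends was not tested.

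**Figure D3:**
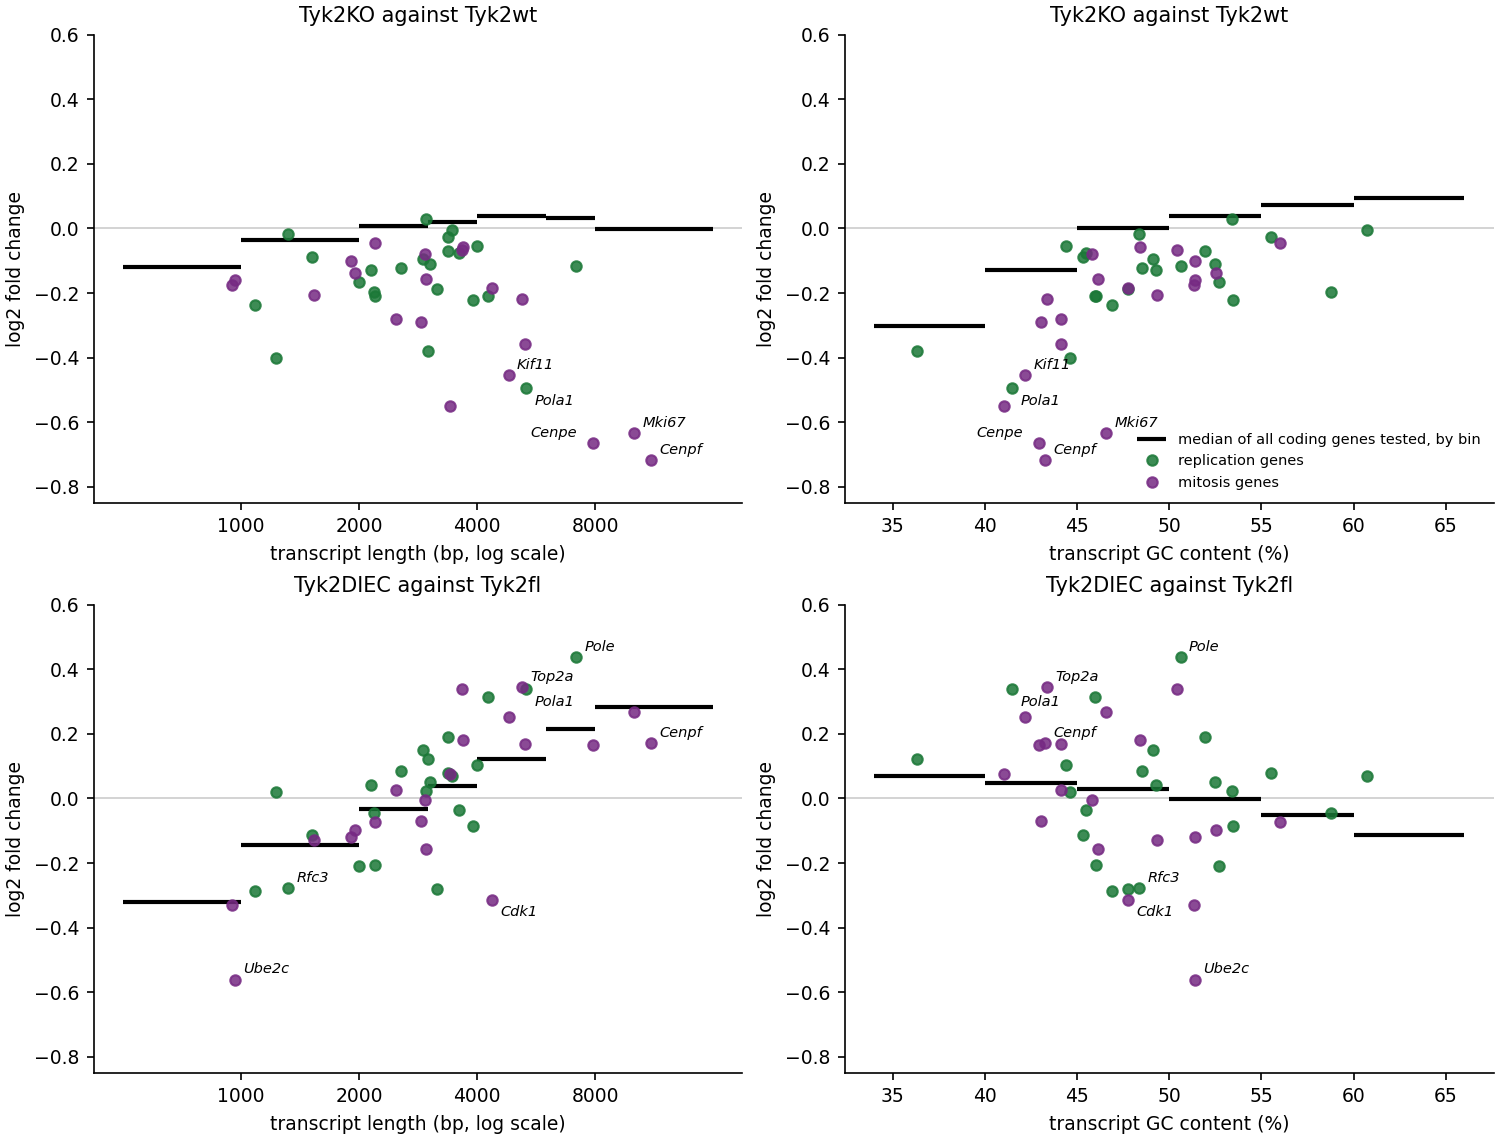
Log2 fold change (y axis) of the members against transcript length in bp (left, log scale) and GC content in percent (right), for Tyk2KO against Tyk2wt (top) and Tyk2DIEC against Tyk2fl (bottom). Points are members, and black bars are medians of all coding genes tested in bins, the outermost drawn to the edge. In the lower left panel the black bars climb from -0.32 to 0.28 with length.

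The libraries themselves were compared by the mean log2 CPM of each class. For replication genes it was 5.66, 5.81 and 5.70 in Tyk2KO tumors, against 5.93, 5.84 and 5.84 in Tyk2wt tumors. For mitosis genes it was 5.87, 5.85 and 5.95 in Tyk2KO tumors, against 6.29, 6.06 and 6.14 in Tyk2wt tumors. In both classes every Tyk2KO library lay below every Tyk2wt library. Tyk2KO replicate 2 was the highest of its group in 16 of 23 replication genes and lowest in none, whereas it was highest in 9 and lowest in 8 of 20 mitosis genes. The mean of mitosis genes exceeded that of replication genes by 0.04 there and by 0.21 and 0.25 in the other Tyk2KO libraries. Tyk2wt replicate 1 was the highest of its group in 17 of 20 mitosis genes.

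In the epithelial experiment the class means of Tyk2DIEC libraries (5.67 to 5.79 for replication, 5.85 to 6.16 for mitosis genes) lay inside the ranges of Tyk2fl libraries (5.54 to 5.86 and 5.75 to 6.23). Tyk2DIEC replicate 1 was the lowest of its group in 19 of 20 mitosis genes and in 6 of 23 replication genes. Long minus short members, in contrast, gave 0.72 to 0.83 in all Tyk2DIEC libraries against 0.20 to 0.42 in Tyk2fl libraries, and 0.27, 0.18 and 0.54 in Tyk2KO against 0.55 to 0.60 in Tyk2wt libraries.

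**Figure D4:**
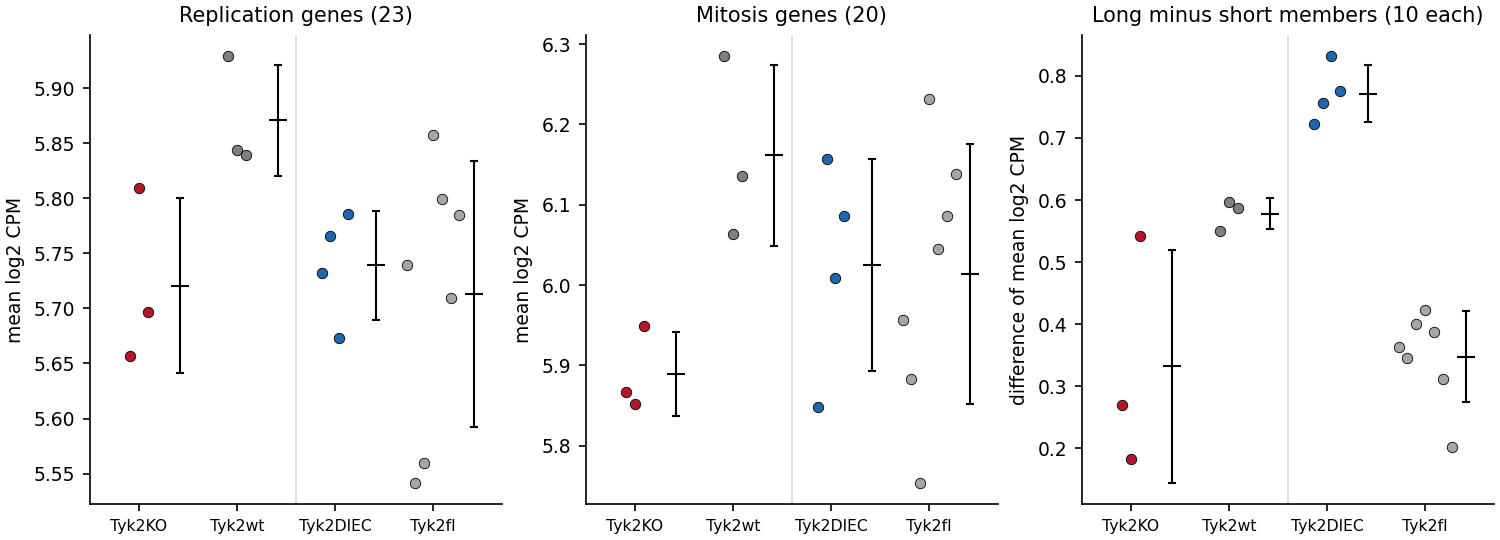
Mean log2 CPM (y axis) over 23 replication genes (left) and 20 mitosis genes (middle), and the 10 members over 4000 bp minus the 10 of up to 2000 bp (right), in each library by genotype. Points are libraries and the bars beside them mean ± SD. Tyk2KO points lie below all Tyk2wt points in the left and middle panels, and Tyk2DIEC points lie above all others in the right panel.

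Further genes of both processes were counted the same way. Of 50 other replication genes none was called in Tyk2KO tumors (median -0.12, 13 with an unadjusted p under 0.05, all lower, beside 13.1% of all genes), and 6 were higher and 3 lower in Tyk2DIEC tumors, near the shares of 10.2% and 9.71% over all genes. The maintenance methyltransferase gene Dnmt1 (0.51 ± 0.09, adjusted p = 0.00293) and the chromatin remodeler gene Hells (0.41 ± 0.08, adjusted p = 0.00584) rose there, and Dut (-0.57 ± 0.12, adjusted p = 0.00867), the dUTPase gene, fell. Of 56 other mitosis genes tested, 8 were lower (background 2.13%) and none higher in Tyk2KO tumors (median -0.19), among them Shcbp1 (-0.83 ± 0.11, adjusted p = 0.00885), the condensin gene Ncapg2 (-0.54 ± 0.09, adjusted p = 0.0231), the kinesin gene Kif4 and the spindle pole gene Aspm. In Tyk2DIEC tumors 7 were higher and 2 lower, again beside 10.2% and 9.71% of all genes, and the lower were Cks1b (-0.59 ± 0.11, adjusted p = 0.00353) and Cks2, the small Cdk-binding subunits.

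Regulators of the cycle were counted too. Of 30 G1 cyclins, kinases and transcription factors none was called in Tyk2KO tumors (median -0.01, 6 with an unadjusted p under 0.05 beside 22.8% of all genes). In Tyk2DIEC tumors Rb1, the retinoblastoma protein that holds E2F back, rose (0.29 ± 0.06, adjusted p = 0.00571) and Cdk4, Ccnd3 and Tfdp1 fell. That is 1 of 30 higher beside 10.2% of all genes and 3 of 30 lower beside 9.71%, not above the rate of all genes by much or at all. Of 20 Cdk inhibitors and growth arrest genes the stress gene Sesn2 alone was called in Tyk2KO tumors, and rose (0.57 ± 0.09, adjusted p = 0.0247, background 0.668%). Gadd45a, Gadd45g and Cdkn1c fell in Tyk2DIEC tumors, 3 of 20 beside 9.71% of all genes, and none rose there.

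Markers of some other cell types were called lower in Tyk2KO than in Tyk2wt tumors too (background 2.13%). Summed markers of T and NK cells were at 9.13 to 11.8 CPM in Tyk2KO and 22.7 to 35.3 CPM in Tyk2wt tumors, and 6 of 10 such genes tested were called lower. Smooth muscle markers summed to 379 to 477 CPM in Tyk2KO and 579 to 830 CPM in Tyk2wt tumors (9 of 14 called lower). Myeloid sums overlapped, at 489 to 650 CPM in Tyk2KO and 641 to 899 CPM in Tyk2wt tumors (3 of 12 called lower). B and plasma cell markers summed to 289 to 417 CPM in Tyk2KO and 485 to 509 CPM in Tyk2wt tumors, with none of 5 genes tested called. Endothelial sums overlapped, at 101 to 154 CPM in Tyk2KO and 103 to 133 CPM in Tyk2wt tumors (none of 10 called). Fibroblast sums overlapped too, at 1252 to 2225 CPM in Tyk2KO and 1371 to 1863 CPM in Tyk2wt tumors (none of 13 called). Epithelial markers overlapped (13217 to 13972 CPM in Tyk2KO, 12005 to 14507 CPM in Tyk2wt tumors), with none of 15 called by edgeR and 1 at an unadjusted p under 0.05. In Tyk2DIEC tumors 5 of 13 fibroblast genes were called lower (background 9.71%), their sum being 1515 to 1894 CPM in Tyk2DIEC and 1543 to 2536 CPM in Tyk2fl tumors. No marker was at 0 in all libraries of a group. The part of these cells in the members' values was not tested, and in counts of whole tumors fewer dividing cells and less RNA per dividing cell cannot be told apart. On stained sections, the study reported that BrdU-positive tumor cells were similar in number in both Tyk2-deficient genotypes and their controls. By proteomics, it reported that proteins higher in Tyk2ΔIEC than in Tyk2fl/fl tumors had roles in DNA replication, the cell cycle and extracellular matrix. For most of the changed proteins it found less than 2-fold change in RNA. Whether the tumors stained or used for proteomics were also sequenced is not stated.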

How the data were processed

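Poly(A) RNA of the tumors was turned into strand-keeping libraries by the authors, read from 1 end, and aligned and counted per gene with STAR 2.6.1a (processing notes and methods). Gencode mouse release 23 is named. The processing notes give GRCm38, the methods GRCh38. The deposited values are raw counts per gene, with no normalization or filter, and the tables of series and single samples were identical in all 942157 cells. No sample column was left out. Genes were named from GENCODE M21, which matched 55240 of 55421 identifiers, and counts on the others were 0.002%. Transcript length and GC content come from 1 principal transcript per gene of that release. These are annotated lengths, not measured ones.

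Each experiment was filtered with filterByExpr (at least 10 counts, total of at least 15). After TMM scaling, genes were tested with edgeR 4.0.16 in R 4.3.3 (quasi-likelihood, two-sided), with p adjusted over all genes by the method of Benjamini and Hochberg and a call at an adjusted p under 0.05. Printed CPM and log2 CPM (prior count 2) use TMM over all 17 libraries. Standard errors were derived from fold change and F. The difference between the experiments and the controls were contrasts over 17 libraries. Alternatives were DESeq2 1.42.0, limma 3.58.1 (voom), other scalings and filters, thinned Tyk2fl libraries, subsets of Tyk2fl libraries, the replicate number as a block and leaving out each library. Trends on length and GC content (splines with 5 degrees of freedom) were added after the data were seen. The members, lists and tests were chosen with earlier results of these data known. Values per library are given for the members with the smallest adjusted p in each comparison (up to 8 a class) and for members that go against their class, and of each other list at most 4 genes with the smallest adjusted p are named. Scripts were tested on simulated data. Figures were drawn with matplotlib 3.10.9 in Python 3.11.15. A result on a withheld item is not reported here.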

Additional observations from a re-analysis of the deposited data

Results flagged for a closer look

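The change of 10 members differed between the deletions (edgeR's quasi-likelihood contrast over 17 libraries, germline change subtracted from epithelial change, log2 scale). The differences were 0.83 for Pola1, 0.55 for Pole, 0.52 for Wdhd1, 0.89 for Mki67, 0.55 for Top2a, 0.62 for Bub1, 0.70 for Kif11, 0.83 for Cenpe, 0.88 for Cenpf and 0.52 for Ercc6l, with adjusted p between 0.00142 and 0.0496. None of them was called once trends on transcript length and GC content were removed, and 9 of the 10 have a transcript over 4000 bp, Bub1 being the exception.

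In 3 of 90 groups of values 1 library stood far from the others of its group, where chance gives about 1 in 20. Only Tyk2DIEC and Tyk2fl libraries were looked at in this way, and Tyk2KO and Tyk2wt, with 3 libraries each, were not. Tyk2DIEC replicate 2 was high for Mcm5 (6.89 log2 CPM, the others 6.81 to 6.82) and for the licensing gene Cdt1 (5.26, the others 5.03 to 5.06). Tyk2DIEC replicate 3 was low for Ccne1 (4.56, the others 4.74).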

How the results depend on the processing

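No direction of a called member reversed under any alternative run, while 252 of 804 values of called members under an alternative lost their call. In Tyk2KO against Tyk2wt tumors (1 member called) there were 0 calls with upper-quartile scaling, library size alone, limma voom, a minimum count of 50, coding genes only, the replicate block, the GC trend removed, and length and GC trends removed with the replicate block, but 3 with the length trend removed, 5 with all 17 libraries in 1 fit, 6 without a low-count filter and 8 with DESeq2. Members called in these were all lower, beside 2.34%, 2.37%, 2.71% and 5.59% of all genes called lower, in that order. Without single libraries 0 to 5 members were called. In Tyk2DIEC against Tyk2fl tumors (9 called) there was 1 with the replicate block, with the length trend removed and with length and GC trends removed, 5 with the GC trend removed and 0 with both trends removed and the replicate block, and 2 to 11 without single libraries. The single calls were lower, beside 3.42% (block), 5.24% (length) and 5.42% (both trends) of all genes called lower. With the GC trend removed 8.93% of all genes were called higher and 8.60% lower. The median of the mitosis genes was -0.13 with Tyk2fl replicates 4 to 7 only, -0.02 with upper-quartile scaling and -0.07 to 0.06 without single libraries, against 0.01. For the difference between the experiments (10 called) there were 5 without a filter, 6 with the replicate block, 0 with length and GC trends removed and 2 to 11 without single libraries. Without a filter and with the block these were all higher, beside 1.65% and 3.76% of all genes. For Tyk2wt against Tyk2fl (8 called) there were 4 without a filter, 1 with length and GC trends removed and 2 to 13 without single libraries. Without a filter and with both trends removed they were higher, beside 2.24% and 2.76% of all genes. Beyond what these settings change by construction, the cause was not tested.

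Over all genes, 453 calls in Tyk2KO against Tyk2wt became 1260 with DESeq2, 1020 without a filter, 246 with the replicate block, 172 with that block and both trends removed and 114 to 822 without single libraries. The 3515 in Tyk2DIEC against Tyk2fl became 1181 with the block, 1593 with both trends removed, 1539 with the length trend removed, 202 with both trends removed and the block and 1632 to 3798 without single libraries. The 1374 for the difference became 868 without a filter, 903 with the block, 690 with both trends removed, 2401 with Tyk2fl replicates 5 to 7 only and 584 to 1690 without single libraries, and the 2219 between the controls became 1453 without a filter, 1060 with both trends removed and 345 to 2806 without single libraries. Calls were higher in 34.1% with library size alone against 23.8% with TMM for Tyk2KO, 11.3% with all 17 libraries in 1 fit and 9.76% with the block, in 50.8% with upper-quartile scaling against 65.7% for the difference, and in 43.8% against 57.3% between the controls. Same-numbered libraries did not deviate together (correlations of -0.11 to -0.00 in the germline and -0.37 to 0.07 in the epithelial experiment), so the replicate block pairs libraries that share only a number. Tyk2fl replicates 5 to 7 have no Tyk2DIEC library of their number and add nothing to the blocked contrasts. These then rest on Tyk2fl replicates 1 to 4, of which 1 to 3 are the libraries with Xist. No such block was possible between the controls, which share no experiment.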
